A study of Mus musculus and Homo sapiens with 20 samples.

Results

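Chromatin accessibility was compared between mouse hepatocytes titled Ad_Cre and Ad_Cont in the riboflavin-deficient arm of the study, titled B2_minus. The comparison rested on 6 of the 20 libraries of the series, 3 B2_minus_Ad_Cre against 3 B2_minus_Ad_Cont, chosen by their titles. All 6 came from hepatocytes labelled AhR-flox, so the Ad_Cont cells carried the floxed Ahr gene too, and all were labelled 4 weeks and vitamin B2 deficient. Ad_Cre and Ad_Cont are taken here as adenovirus with Cre recombinase and control adenovirus; the labels do not say what else the viruses carry, which part of Ahr is floxed or whether replicates came from separate animals or cultures. The p-values therefore measure only the spread between these libraries, which may be technical. The same contrast in the control diet, 3 Cont_Ad_Cre against 3 Cont_Ad_Cont libraries, entered the same fit and is set beside the riboflavin-deficient values.

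AhR, the aryl hydrocarbon receptor, is a ligand-activated transcription factor that pairs with ARNT, binds DNA at a short core element and activates genes of xenobiotic metabolism, among them Cyp1a1 and Cyp1a2 in the liver. AHRR and TIPARP, themselves products of AhR targets, restrain the receptor. Cre recombinase removes DNA between loxP sites, so Cre in floxed cells is a means to delete Ahr. Riboflavin, vitamin B2, is the precursor of the flavin cofactors FMN and FAD. In ATAC-seq the transposase Tn5 inserts adapters into open DNA, and tags pile up at accessible promoters and enhancers. The comparison asks which accessible sites differ between Ad_Cre and Ad_Cont cells when riboflavin is short. All hepatocyte libraries of the series came from AhR-flox cells, so loss of Ahr cannot be told apart from other effects of Ad_Cre.

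The core AhR element was looked for in promoters, defined as the RefSeq window from 250 bases before to 50 bases after a gene's start on GRCm38.p6. The letters searched were GCGTG and the reverse complement CACGC, on both strands, and 10639 of 32851 windows (32.4%) held at least 1 copy. Of the 34 genes in a list of AhR pathway members and targets, 24 had a window, and 15 of their 26 windows (57.7%) held the letters. The windows below are those of Smc3 and Meis3, where the region behind a call lay over the gene's own start, and of a pair of classic AhR targets, Tiparp and Ahrr, whose start lay in a tested region. Capitals mark each copy of the letters. A match is a description of these letters only and shows no binding.
Smc3, chr19:53600146-53600445, plus strand, 0 copies: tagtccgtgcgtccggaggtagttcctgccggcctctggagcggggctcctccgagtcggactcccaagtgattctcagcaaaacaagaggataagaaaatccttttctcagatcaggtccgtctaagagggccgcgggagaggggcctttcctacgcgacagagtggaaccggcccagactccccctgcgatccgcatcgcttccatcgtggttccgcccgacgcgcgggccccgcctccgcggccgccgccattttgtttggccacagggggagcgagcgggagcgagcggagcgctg
Meis3, chr7:16175145-16175444, plus strand, 1 copy: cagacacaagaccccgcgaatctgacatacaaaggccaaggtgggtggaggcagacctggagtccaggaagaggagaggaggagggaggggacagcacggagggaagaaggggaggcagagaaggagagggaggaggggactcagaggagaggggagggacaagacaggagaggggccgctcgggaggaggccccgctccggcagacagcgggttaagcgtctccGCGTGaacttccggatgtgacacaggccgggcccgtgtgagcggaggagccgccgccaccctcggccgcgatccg
Tiparp, chr3:65528197-65528496, plus strand, 1 copy: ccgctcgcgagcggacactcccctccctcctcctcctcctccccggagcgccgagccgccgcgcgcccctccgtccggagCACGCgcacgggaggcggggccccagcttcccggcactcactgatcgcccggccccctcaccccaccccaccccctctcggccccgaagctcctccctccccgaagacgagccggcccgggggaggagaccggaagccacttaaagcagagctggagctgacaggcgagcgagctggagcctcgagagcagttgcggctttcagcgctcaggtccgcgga
Ahrr, chr13:74292282-74292581, minus strand, 3 copies: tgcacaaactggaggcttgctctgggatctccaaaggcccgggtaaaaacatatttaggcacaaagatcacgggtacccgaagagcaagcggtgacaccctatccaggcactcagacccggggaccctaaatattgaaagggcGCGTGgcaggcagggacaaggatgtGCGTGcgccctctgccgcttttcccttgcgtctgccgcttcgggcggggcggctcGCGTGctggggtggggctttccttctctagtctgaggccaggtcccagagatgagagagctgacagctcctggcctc

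Peaks of all 12 hepatocyte libraries that overlapped by at least 1 bp were merged into 642948 regions, and 101575 regions with a peak in every library were tested. Each region's value is the highest peak in it, in scaled tags, meaning tags divided by the relative size of the library. The 6 libraries listed 206937 to 235205 peaks with 4129212 to 4926717 tags in them. The lowest listed value was 6 to 7 tags, and a weaker site is absent from a list rather than at 0. Peak number averaged 226038 ± 15671.5 in Ad_Cre and 218707 ± 10240.1 in Ad_Cont libraries (SD, n = 3 each, exact two-sided permutation p = 0.5, where the smallest possible is 0.1). The share of tags at gene ends was 31.0% in Ad_Cre and 30.9% in Ad_Cont libraries (exact permutation p = 0.9). The first principal component held 23% of the variance and separated the groups, with scores of -43.6, -28.6 and -25.9 in Ad_Cre and 20.3, 42.3 and 35.4 in Ad_Cont libraries. The second held nearly as much, 20.9%, and set Ad_Cont replicate 2 (55.0) apart from Ad_Cont replicate 3 (-55.9). Pearson correlations of log values across regions were 0.930 to 0.938 between libraries of a group and 0.927 to 0.933 between groups.

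Few of the regions listed in every library passed the test. Of the 101575 regions, 1 rose (0.000984%) and 1 fell (0.000984%) in Ad_Cre cells at an adjusted p under 0.05 (edgeR's quasi-likelihood test with Benjamini-Hochberg adjustment), which is 0.00197% of those tested. The region that rose lay at the start of Smc3, which encodes a core subunit of the cohesin ring that holds sister chromatids and shapes chromatin loops. The region that fell lay 35054 bp from Cd180, which encodes a Toll-like receptor homologue known from B cells and macrophages. A total of 7408 regions (7.29%) had an unadjusted p under 0.05, with 3722 higher (3.66%) and 3686 lower (3.63%) in Ad_Cre cells, and the median log2 fold change of all regions was 0.001. In bulk libraries, fewer cells with an open site and less opening per cell cannot be told apart.

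The Smc3 region, chr19:53600219-53601053 on mm10, had 41.7, 33.5 and 40.8 scaled tags in Ad_Cre and 20.6, 23.3 and 17.9 in Ad_Cont libraries. The groups did not overlap. The log2 fold change was 0.90 (SE 0.169, edgeR adjusted p = 0.0159), with means of 38.7 ± 4.49 in Ad_Cre and 20.6 ± 2.72 in Ad_Cont cells (SD, n = 3 each). In the control diet the log2 fold change was -0.06 (unadjusted p = 0.653). Just below the region stood a stronger peak, with 85.6, 70.9 and 79.9 scaled tags in Ad_Cre and 78.9, 80.6 and 74.7 in Ad_Cont libraries. The groups overlapped at this strong peak. Inside the region, the Ad_Cre values came from a shoulder peak starting 64, 100 and 63 bp from its lower end, which the 6 control-diet libraries also listed. The Ad_Cont values came from peaks starting at 635, 290 and 629 bp, since no peak was listed at the shoulder there. With peaks closer than 500 bp stitched into 1 cluster, the Smc3 cluster had 78.6 ± 7.17 scaled tags in Ad_Cre and 78.0 ± 3.15 in Ad_Cont cells, a log2 fold change of 0.01 (SE 0.0862, adjusted p = 0.995). Its call was also lost without replicate 1 or 3 of either group (adjusted p 0.0972 to 0.189) and with listed tags as library size (adjusted p = 0.0543).

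The Cd180 region, chr13:102657722-102658493, had 9.39, 11.5 and 27.2 scaled tags in Ad_Cre and 37.6, 35.0 and 34.7 in Ad_Cont libraries. All Ad_Cre values were lower, but Ad_Cre replicate 3 stood near the Ad_Cont libraries. The log2 fold change was -1.12 (SE 0.197, edgeR adjusted p = 0.00571), and in the control diet it was -0.21 (unadjusted p = 0.22). Here too a stronger peak stood beside the region, with 59.5, 51.7 and 51.7 scaled tags in Ad_Cre and 58.2, 55.1 and 57.9 in Ad_Cont libraries. A shoulder peak starting 550 to 569 bp from the region's lower end was listed with 30 tags in Ad_Cre replicate 3, and with 42, 33 and 33 tags in the Ad_Cont libraries. Ad_Cre replicates 1 and 2 listed no peak at that place, and their values came from weaker peaks starting at 37 and 331 bp with 9 and 12 tags. The stitched Cd180 cluster gave a log2 fold change of -0.08 (SE 0.110, adjusted p = 0.926). The Cd180 call was lost without Ad_Cont replicate 1 or Ad_Cre replicate 1 or 2 (adjusted p 0.0913 to 0.208), and without Ad_Cre replicate 3 the log2 fold change was -1.76. Neither region, nor any other, passed with edgeR bounded at Poisson variance (2485 at an unadjusted p under 0.05) or with DESeq2 (594). Both calls were also lost when the peaks of a region were summed (adjusted p 0.369 at Smc3 and 0.434 at Cd180) or when regions with a peak in at least 3 libraries were tested (0.277 and 0.441). The calls at Smc3 and Cd180 thus ended when neighbouring peaks were joined, and what made the shoulder peaks listed or not was not tested.

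**Figure D1:**
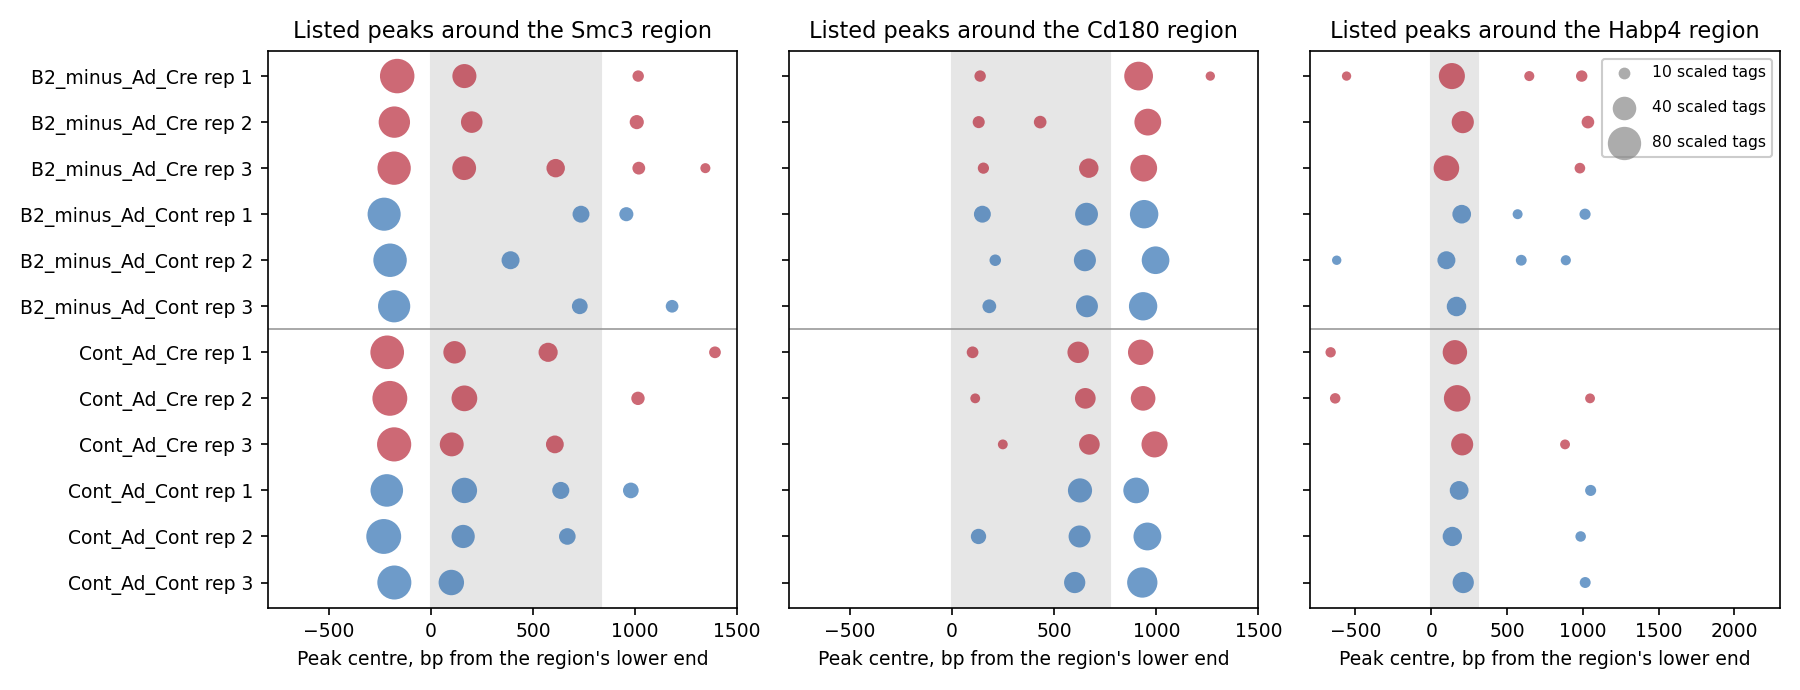
Every listed peak around the Smc3, Cd180 and Habp4 regions (grey), by library, with Ad_Cre (red) above Ad_Cont (blue) for B2_minus libraries above the line and Cont libraries below it; the x axis is the peak's centre in bp from the region's lower end and dot area is scaled tags. The strong peaks beside the Smc3 and Cd180 regions are listed in every library, the shoulder peak is absent from the 3 B2_minus_Ad_Cont rows at Smc3 and from 2 B2_minus_Ad_Cre rows at Cd180, and at Habp4 all 12 libraries list 1 peak at 1 place within the grey region.

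Across all tested regions the highest peaks of the 6 libraries overlapped each other at 84838 (83.5%), and the Smc3 and Cd180 regions were not among them. The next 12 regions in each direction, by lowest p among those with groups that did not overlap, did not pass the test, and 9 of 12 higher and 9 of 12 lower ones had their highest peaks at 1 place. Groups did not overlap at 12200 of all regions (12%). For these 24 regions the lack of overlap was a condition of the choice, so it lends them no support. Of these 24 regions the one of lowest p lay inside Habp4, which encodes a hyaluronan- and RNA-binding protein, at chr13:64183649-64183959. It had 49.0, 35.5 and 47.2 scaled tags in Ad_Cre and 25.1, 23.3 and 27.4 in Ad_Cont libraries (log2 fold change 0.79, SE 0.159, edgeR adjusted p = 0.0565). The control-diet libraries, which share no sample with these, gave 0.59 (unadjusted p = 0.000288). The stitched Habp4 cluster gave 0.79 (adjusted p = 0.0882), the same size as the region alone. The Habp4 region passed the test in 6 of 20 alternative settings, among them the fit without Ad_Cre replicate 2 (adjusted p = 0.0106).

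The other 11 regions with higher values in Ad_Cre cells had adjusted p-values of 0.0703 to 0.109. The region over the start of Meis3, a homeodomain transcription factor, had 30.3, 23.0 and 24.5 scaled tags in Ad_Cre and 12.5, 11.7 and 12.6 in Ad_Cont libraries (log2 fold change 1.06). Other regions lay inside Nfatc2, the calcineurin-responsive factor (1.19), and Nfic, a nuclear factor I family member (0.59). A further region lay inside Lin52, a subunit of the DREAM complex that represses cell-cycle genes (1.11). The region near Lyst, the lysosomal trafficking regulator, had 48.0, 44.1 and 39.0 scaled tags in Ad_Cre and 28.7, 24.4 and 24.2 in Ad_Cont libraries (0.74), and one inside Rab3b, a GTPase of exocytosis, differed by 0.70. The region near Ttk, the spindle checkpoint kinase, had 40.7, 46.0 and 46.3 scaled tags in Ad_Cre and 28.7, 25.4 and 29.5 in Ad_Cont libraries (0.67). The rest lay in Cped1 (1.20), in the Wnt receptor gene Ryk (1.14), in Sdccag8, a centrosome gene (0.42), and in Slc39a9, a zinc transporter gene (1.07). The Ad_Cont libraries stood near the lowest listed value at Nfatc2 (6.27, 8.48 and 6.31 scaled tags) and Cped1 (8.96, 7.42 and 6.31), which limits those folds. With stitched peaks the log2 fold change was 0.28 at Cped1, 0.11 at Nfatc2 and 0.21 at Nfic, and its sign turned at Slc39a9 (-0.26). With the peaks of a region summed, Nfatc2 gave 1.98.

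The 12 regions with lower values in Ad_Cre cells had adjusted p-values of 0.0698 to 0.160. The region inside Abcc4, an efflux pump of organic anions and bile acids, had 39.7, 39.3 and 39.9 scaled tags in Ad_Cre and 54.7, 58.3 and 64.2 in Ad_Cont libraries (log2 fold change -0.57). Slc22a7, an organic anion uptake carrier (-0.90), and Lrp1, the endocytic receptor for lipoprotein remnants (-1.12), also had regions of lower values. So did Map3k7, the gene of the kinase TAK1 (-1.06), and Deptor, an inhibitor of mTOR (-1.26). The Deptor region had 6.26, 6.71 and 6.35 scaled tags in Ad_Cre and 19.7, 12.7 and 13.7 in Ad_Cont libraries, so the Ad_Cre values stood at the lowest listed value and the fold is limited by it. The region inside Sptbn1, a spectrin gene, had 24.0, 19.2 and 26.3 scaled tags in Ad_Cre and 42.1, 36.1 and 41.0 in Ad_Cont libraries (-0.78). A region between Ankrd17 and the albumin gene, 45478 bp from Ankrd17 and 46393 bp from the Alb start, had 24.0, 30.7 and 31.7 scaled tags in Ad_Cre and 51.1, 40.3 and 42.1 in Ad_Cont libraries (-0.63). The others were near Btbd7 (-1.15), Abhd3 (-1.06), Adamts10 (-1.25), C330018D20Rik (-0.86) and Sall1 (-0.98). Near the lowest listed value too were the Ad_Cre libraries at Adamts10 (6.26, 6.71 and 7.26 scaled tags) and Lrp1 (8.35, 6.71 and 8.16). With stitched peaks the log2 fold change was -0.06 at Adamts10, -0.17 at Deptor, -0.16 at Slc22a7 (-1.39 with summed peaks), -0.23 at Sptbn1 and -0.38 at Ankrd17, and the sign turned for Btbd7 (0.10), Abhd3 (0.09), Lrp1 (0.02) and C330018D20Rik (0.21).

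**Figure D2:**
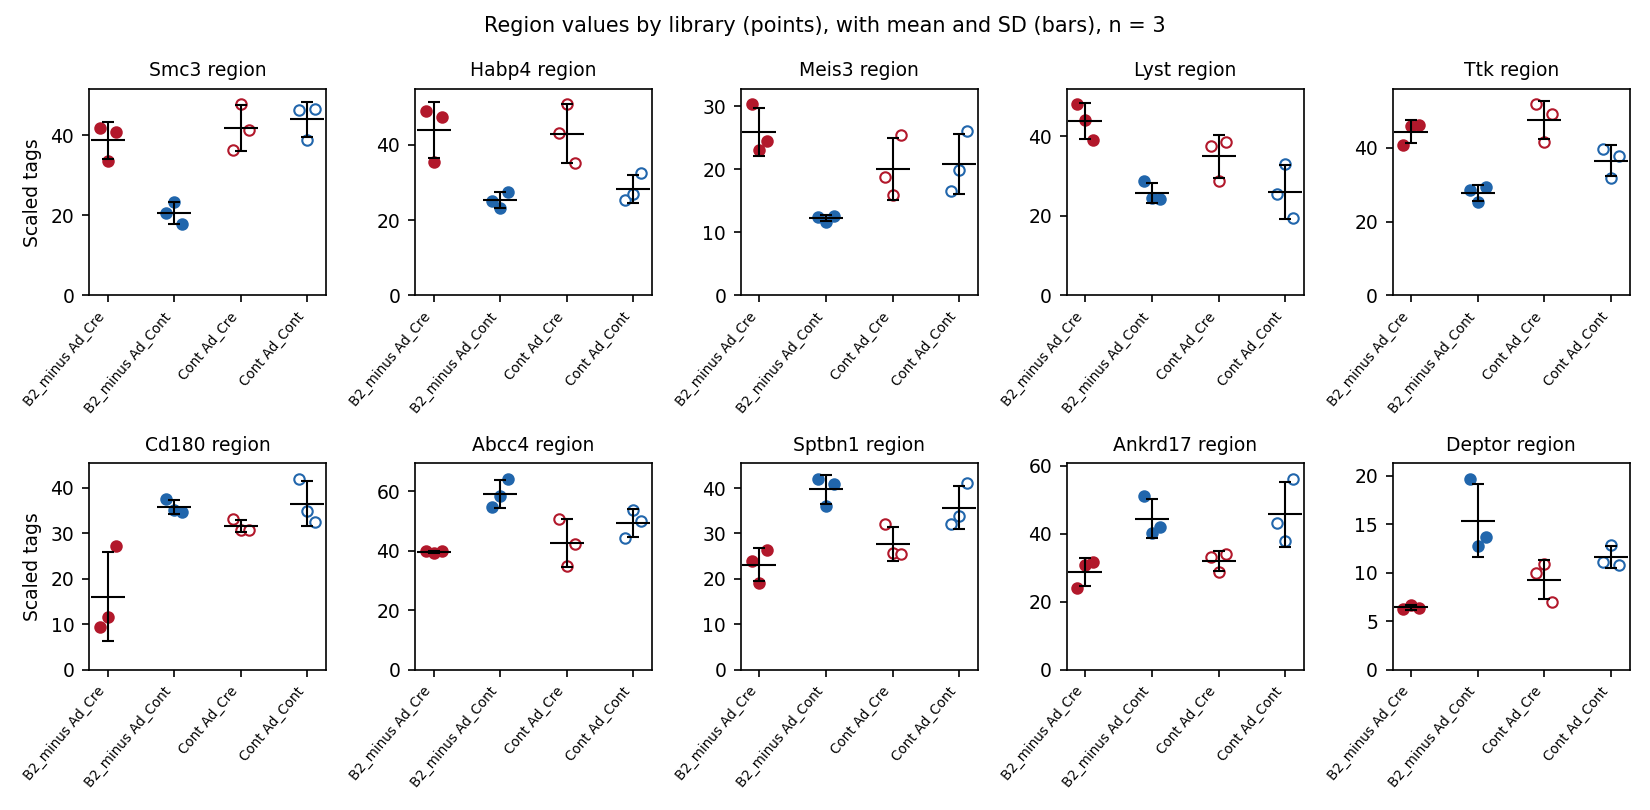
Scaled tags (y axis, from 0) of 10 named regions in each library, with mean and SD (n = 3), in the order B2_minus Ad_Cre, B2_minus Ad_Cont, Cont Ad_Cre and Cont Ad_Cont. In the B2_minus libraries every Ad_Cre point lies above every Ad_Cont point in the upper row and below it in the lower row. This separation was a condition of the choice for all regions shown but Smc3 and Cd180. The Smc3 values of the Cont libraries stand with those of B2_minus Ad_Cre, at 36.4 or more.

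In the control diet, 3 of the 12 higher and 4 of the 12 lower regions had an unadjusted p under 0.05 in edgeR. The same sign as in riboflavin deficiency was found for 9 of the 12 higher and 6 of the 12 lower ones. Those with a low p were the Habp4, Lyst and Ttk regions (higher) and the Sptbn1, Abhd3, Sall1 and Ankrd17 regions (lower). The share of all tested regions with such a p in the control diet was not counted. Among the 7408 regions with an unadjusted p under 0.05 in riboflavin deficiency, 833 had one in the control diet too. In edgeR, 0 of 101575 regions (0%) passed the interaction test, which asks whether the Ad_Cre effect differs between the diets. An unadjusted p under 0.05 was reached by 5229 (5.15%). DESeq2 and limma also called 0. With 3 libraries a group, this does not show that the effect was the same in both diets. The Smc3 region had an interaction p of 2.13e-05 (adjusted p = 0.541) and the Cd180 region one of 0.000664 (adjusted p = 0.832). In the control diet alone 6 regions (0.00591%) passed the test, and with the effect averaged over both diets 97 did (0.0955%), 49 higher (0.0482%) and 48 lower (0.0473%). That averaged count was 0 with bounded edgeR and with DESeq2, and 32 higher and 310 lower with listed tags as library size. Over all regions the log2 fold changes in one diet were correlated with those in the other at Pearson's r = 0.160 and Spearman's rho = 0.147, given as a description, since regions share libraries. Of the 7408 regions with an unadjusted p under 0.05 in riboflavin deficiency, 4770 (64.4%) had the same sign in the control diet, against 54.6% of all regions. Where both diets had an unadjusted p under 0.05, 722 of 833 regions (86.7%) had the same sign.

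**Figure D3:**
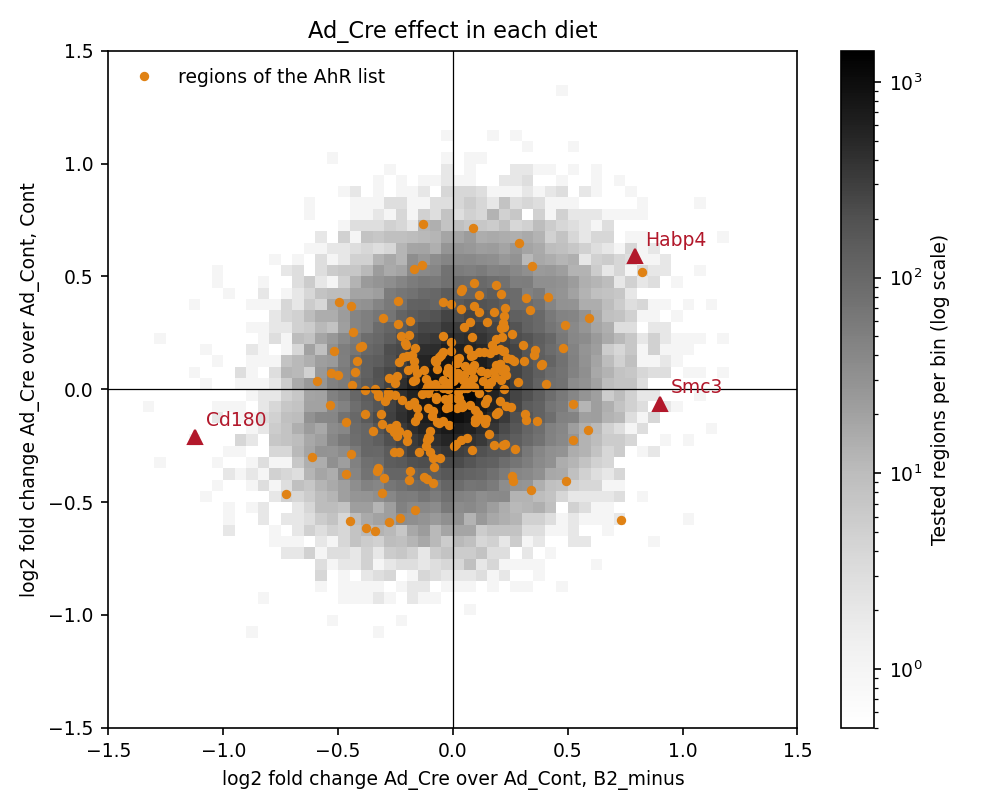
Log2 fold change of Ad_Cre over Ad_Cont in B2_minus libraries (x axis) and in Cont libraries (y axis) for all 101575 tested regions, with shading by number of regions on a log scale the regions of the AhR pathway and target list as orange dots, and the Smc3, Cd180 and Habp4 regions as red triangles. Habp4 lies far from 0 on both axes at 0.79 and 0.59, and Smc3 lies far from 0 on the x axis only, at 0.90 and -0.06.

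Tags of all regions nearest to a gene, within 50 kb, were also summed, which sets more tags behind each value. Of 16568 genes, 4 passed the test (0.0241%), with Sfi1 and Meis3 higher and Amn1 and Cd180 lower in Ad_Cre cells, and 1247 (7.53%) had an unadjusted p under 0.05. Bounded edgeR and DESeq2 called 0 genes (378 and 85 at an unadjusted p under 0.05) and limma called 5. Amn1, whose yeast counterpart is an antagonist of mitotic exit, had the lowest p. Its 13 regions held 365.2, 374.1 and 383.1 scaled tags in Ad_Cre and 441.2, 446.9 and 456.6 in Ad_Cont libraries. The groups lay well apart, at 374 ± 8.93 in Ad_Cre and 448 ± 7.81 in Ad_Cont cells (SD, n = 3 each), a log2 fold change of -0.26 (SE 0.0425, edgeR adjusted p = 0.000434). The control diet gave -0.17 (unadjusted p = 0.000234, adjusted p = 0.111).

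The Amn1 difference was spread over the locus, chr6:149154137-149225482, rather than held by 1 site. All 13 regions had lower means in Ad_Cre cells, 6 of them with an unadjusted p under 0.05, and 12 of 13 were lower in the control diet. Amn1 was picked by the sum of these regions in B2_minus, so their shared sign there is largely fixed by that choice. The farthest one, 36070 bp from the gene, had 10.4, 11.5 and 7.26 scaled tags in Ad_Cre and 18.8, 19.1 and 22.1 in Ad_Cont libraries (log2 fold change -1.04, adjusted p = 0.160). One inside the gene had 15.7, 11.5 and 12.7 scaled tags in Ad_Cre and 24.2, 22.3 and 22.1 in Ad_Cont libraries (-0.79). The neighbouring genes did not pass the test, with log2 fold changes of -0.01 for Etfbkmt, -0.06 for Resf1 and 0.02 for Dennd5b. The Amn1 call was kept when any 1 library was left out (adjusted p 0.00269 to 0.0274). It was lost with stitched peaks, at a log2 fold change of -0.22 (adjusted p = 0.0574).

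Sfi1, a centrin-binding protein gene of the spindle poles, had 1262, 1251 and 1287 scaled tags over 38 regions in Ad_Cre and 1083, 1164 and 1183 in Ad_Cont libraries. All Ad_Cre values were higher (log2 fold change 0.15, SE 0.0283, edgeR adjusted p = 0.00462), and the control diet gave 0.16 (adjusted p = 0.000156). A run of 20 neighbouring regions, chr11:3184583-3200052, had higher Ad_Cre means in both diets, with a median log2 fold change of 0.24 in B2_minus and 0.22 in Cont cells. This run was picked after its values were seen and carries no test. The other 18 regions had a median of 0.07, with 11 higher and 7 lower. Mouse Sfi1 is known for near-identical copies of its sequence, and how reads with several matches were placed is not given in the sources used here, so this result is uncertain. Without Ad_Cont replicate 1 the log2 fold change was 0.11 (adjusted p = 0.374), without Ad_Cre replicate 3 it was 0.14 (adjusted p = 0.112), with listed tags as library size it was 0.13 (adjusted p = 0.737), and with stitched peaks it was 0.06 (adjusted p = 0.821).

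Cd180 on summed tags had a log2 fold change of -0.33 (SE 0.0674, edgeR adjusted p = 0.0187) over 6 regions. The 5 regions other than the one described above differed by -0.33 to -0.08, all lower and with adjusted p-values of 0.671 or more. The sum was -0.19 with stitched peaks (adjusted p = 0.514), and leaving out any library but Ad_Cont replicate 2 or Ad_Cre replicate 3 gave an adjusted p of 0.119 to 0.292. Meis3 had a single region, the one over the promoter printed above, with a log2 fold change of 1.06 (SE 0.217, edgeR adjusted p = 0.0187). It passed in this smaller family of tests and not among all regions. Its call was lost when any library but Ad_Cre replicate 2 was left out (adjusted p 0.0977 to 0.183) and with stitched peaks (adjusted p = 0.0574), and the control diet gave -0.04. The uncalled genes of lowest p were Ntn1, the axon guidance cue netrin 1 (0.33, adjusted p = 0.0515), Cdc42, a small GTPase of cell polarity (0.20), Pla2g12a (0.32), Trim72 (0.31), Pakap (0.12) and Ccdc172 (0.30) with higher values. Among those with lower values were Agmo, an enzyme that cleaves ether lipids (-0.25, adjusted p = 0.0572), Map3k2 (-0.24), Tnfrsf22 (-0.35), Mbp (-0.17) and Myh13 (-0.57).

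**Figure D4:**
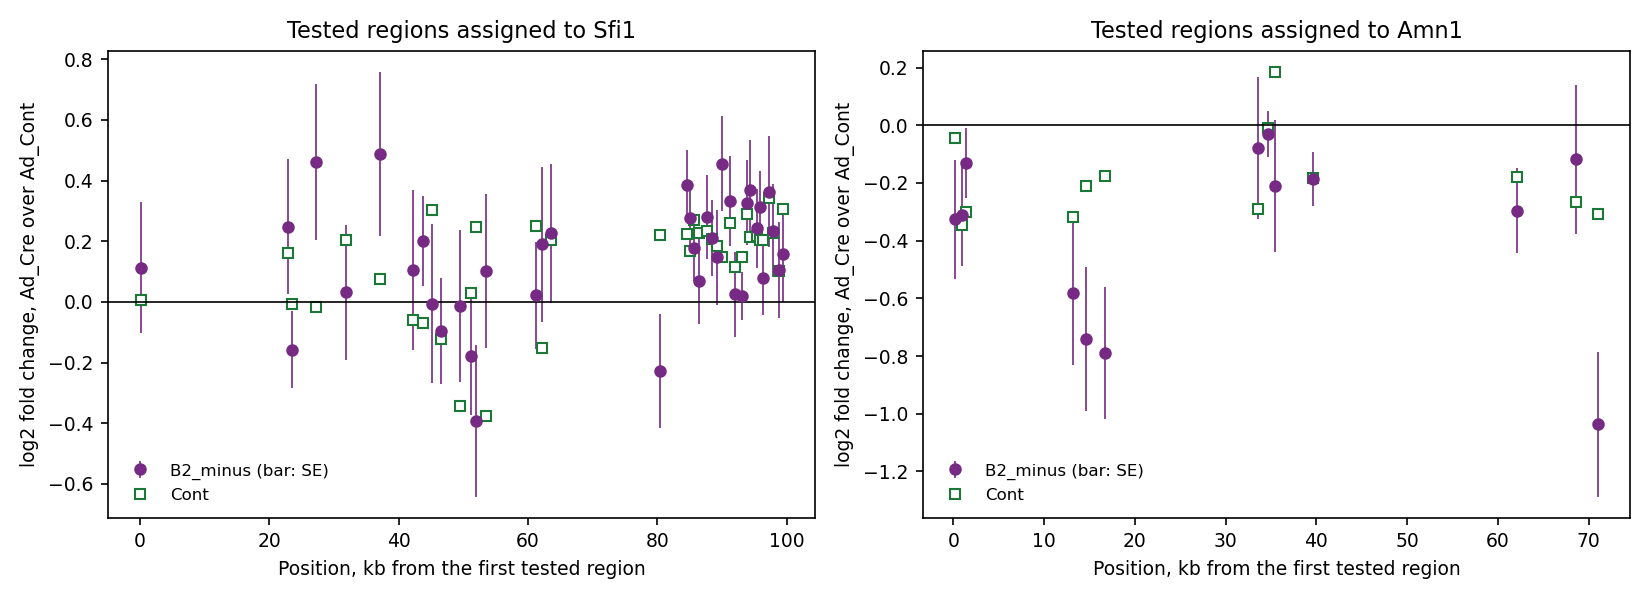
Log2 fold change of Ad_Cre over Ad_Cont (y axis) for each tested region of Sfi1 (left panel) and Amn1 (right panel), by distance in kb from the first one (x axis), for B2_minus (filled dots, with SE) and Cont libraries (open squares, drawn without SE). All 13 Amn1 points of B2_minus lie below 0, and the 20 Sfi1 regions farthest to the right lie above 0 in both diets, with B2_minus values of 0.02 to 0.46.

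At Ahr itself, chr12:35497979-35534989, ATAC-seq on DNA could show a deletion only at listed peaks. Sites inside the gene were open in both groups, and 0 of 9 tested regions at Ahr passed edgeR's test, 1 of them with an unadjusted p under 0.05. DESeq2 called 0 and the limma calls were the Smc3 and Cd180 regions. That 1 region was the promoter-end site, chr12:35534948-35535212, with 69.9, 66.1 and 65.3 scaled tags in Ad_Cre and 78.0, 78.5 and 77.9 in Ad_Cont libraries. All Ad_Cre values were lower, at a log2 fold change of -0.22 (SE 0.0922, adjusted p = 0.582), and the control diet gave -0.05. The region in the far part of the gene, chr12:35506450-35506691, had 32.3, 34.5 and 26.3 scaled tags in Ad_Cre and 30.5, 28.6 and 20.0 in Ad_Cont libraries, with overlapping groups. Summed over the 9 regions Ahr had 259.7 ± 6.38 scaled tags in Ad_Cre and 274.5 ± 5.03 in Ad_Cont cells (SD, n = 3 each), a log2 fold change of -0.08 (SE 0.0527, adjusted p = 0.782). This sum includes regions 37880 and 43864 bp outside the gene.

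One weak site inside Ahr was listed by group. The region chr12:35531670-35532019, 3145 bp inside the promoter end, was listed in none of the 3 Ad_Cre libraries and had 12, 10 and 11 tags in the Ad_Cont libraries. In the control diet it had 9 tags in 1 of 3 Ad_Cre libraries and 10 and 11 tags in 2 of 3 Ad_Cont libraries. Among regions listed in at least 6 of the 12 libraries with a median of 10 to 15 tags, 10.1% of entries were unlisted. What left the Ahr site unlisted in the Ad_Cre libraries was not tested. Neighbouring sites on either side, at chr12:35530380-35531633 and chr12:35532160-35532926, were listed in all 12 libraries. All tags listed inside Ahr summed to 249, 221 and 220 scaled tags in Ad_Cre and 254, 267 and 289 in Ad_Cont libraries. These sums did not overlap, while in the control diet they were 241, 216 and 223 in Ad_Cre and 228, 247 and 213 in Ad_Cont libraries and did. The sums include the weak site above. They rest on 17, 11 and 13 listed regions in the B2_minus Ad_Cre libraries and 16, 16 and 19 in the B2_minus Ad_Cont libraries. Their lack of overlap is thus not separate from the listing of that site. None of these values measures how much of Ahr was deleted.

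**Figure D5:**
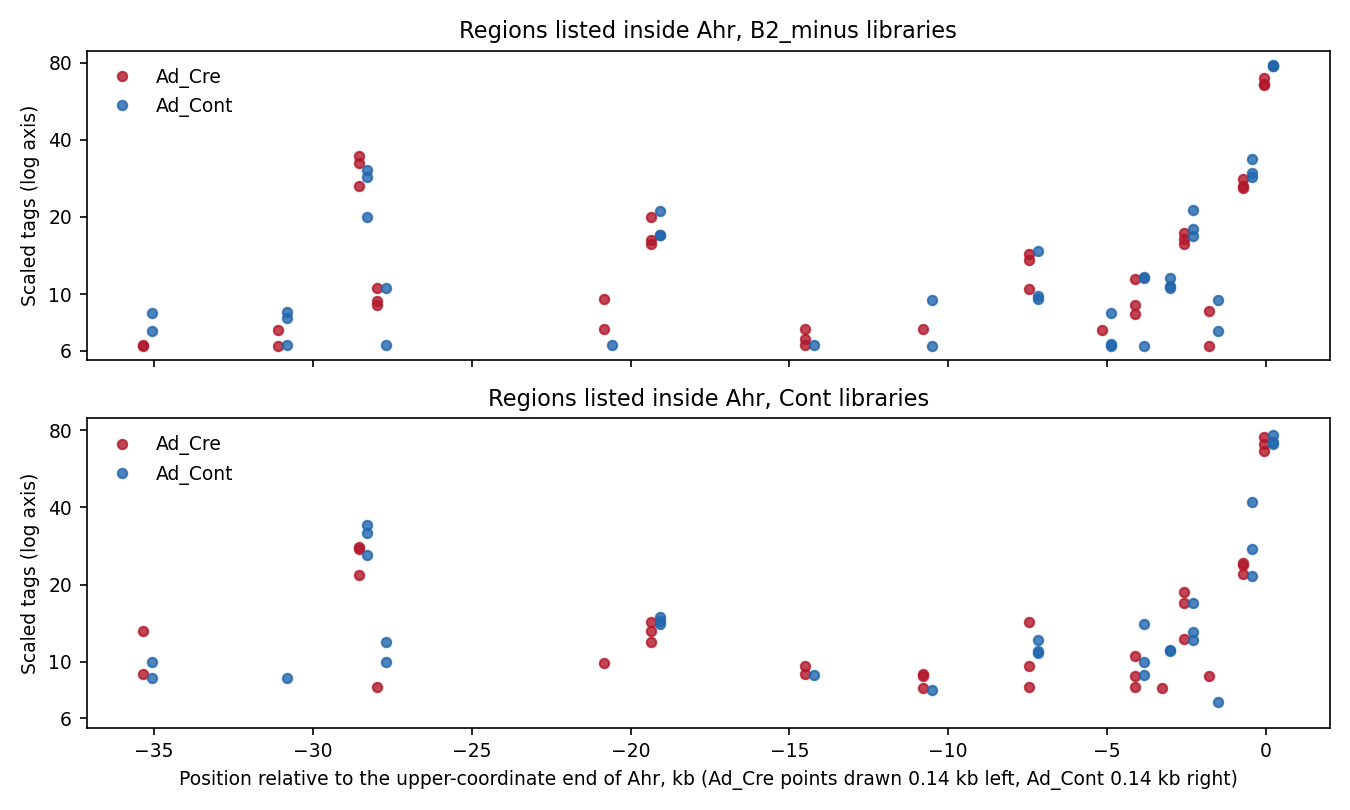
Listed regions inside Ahr by position in kb from its promoter end (x axis) and scaled tags on a log axis (y axis), with Ad_Cre (red) drawn left of Ad_Cont (blue), for B2_minus libraries (top) and Cont libraries (bottom); a library without a listed peak has no point. Tall sites at both ends of the gene have points of both groups, and the site 3145 bp from the promoter end has Ad_Cont points only in the top panel.

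The AhR pathway and target list had 33 of 34 genes with a tested region, and 281 regions. None of the 281 passed edgeR's test, 10 were higher and 18 lower in Ad_Cre cells at an unadjusted p under 0.05 (9.96%, against 7.29% of all regions), and DESeq2 and limma called 0 of them. Groups did not overlap at 25 higher and 28 lower regions (18.9%, against 12% of all), and the list's median log2 fold change was -0.005, against 0.001 over all regions. On summed tags 0 of the 33 genes passed and 4 had an unadjusted p under 0.05, against 7.53% of all genes. These were Ugt1a6a, a glucuronidation enzyme (-0.27, adjusted p = 0.467), Selenbp1, a methanethiol oxidase (-0.18), Ahrr, the AhR repressor (0.37), and Klf6, a zinc-finger factor (0.06). Of the 33 genes, 11 were higher and 22 lower, with a median of -0.03, against -0.00087 over all genes.

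The receptor's partners and chaperones did not pass the test. On summed tags the log2 fold change was -0.07 for Arnt, the DNA-binding partner (SE 0.0554), 0.10 for Arnt2 (SE 0.0538), -0.02 for Hsp90ab1, a cytosolic chaperone (SE 0.0679) and -0.07 for Ptges3, the p23 co-chaperone (SE 0.0657). Ahrr had 32.2, 43.1 and 38.9 scaled tags over 3 regions in Ad_Cre and 34.2, 30.7 and 23.0 in Ad_Cont libraries, with overlapping groups (unadjusted p = 0.0203, adjusted p = 0.562). At the Ahrr promoter printed above there were 11.5, 14.4 and 11.8 scaled tags in Ad_Cre and 12.5, 9.54 and 8.42 in Ad_Cont libraries (0.28, adjusted p = 0.880). The Tiparp promoter was a strong site, with 88.7, 80.5 and 80.7 scaled tags in Ad_Cre and 76.2, 92.2 and 86.3 in Ad_Cont libraries (-0.02, SE 0.0854).

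Among the classic enzyme targets, a weak region 6993 bp from Cyp1a2, chr9:57669681-57669944, had 9.39, 13.4 and 16.3 scaled tags in Ad_Cre and 22.4, 22.3 and 21.0 in Ad_Cont libraries. The groups did not overlap (log2 fold change -0.73, SE 0.233, unadjusted p = 0.00219, adjusted p = 0.414), and the control diet gave -0.46 (unadjusted p = 0.048). The other Cyp1a2 region, 5125 bp away, had 23.0, 21.1 and 18.1 scaled tags in Ad_Cre and 17.9, 19.1 and 15.8 in Ad_Cont libraries, with an opposite sign (0.23). The 3 Cyp1a1 regions had log2 fold changes of 0.07 to 0.22, with adjusted p-values of 0.856 or more. The promoter of Nqo1, a flavoprotein quinone reductase that AhR and NRF2 both activate, had 55.3, 50.8 and 59.0 scaled tags in Ad_Cre and 50.2, 55.1 and 50.5 in Ad_Cont libraries (0.09). The site just before Cyp1b1 gave -0.10 (SE 0.116). None of these differences passed the test at this depth.

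The lowest p in the list belonged to a region inside Socs2, a brake on growth hormone signalling that AhR ligands induce. It had 27.1, 25.9 and 21.8 scaled tags in Ad_Cre and 14.3, 13.8 and 13.7 in Ad_Cont libraries (log2 fold change 0.82, SE 0.232, edgeR adjusted p = 0.277; 0.52 in the control diet). All Ad_Cre values were higher, yet Socs2 summed over its 14 regions gave 0.01. A region 18311 bp from Nfe2l2, which encodes NRF2, had 64.7, 68.0 and 69.8 scaled tags in Ad_Cre and 76.2, 89.1 and 83.1 in Ad_Cont libraries (-0.28, adjusted p = 0.409). Itpr1, a calcium channel gene with 57 of the list's regions, had 1 higher and 5 lower at an unadjusted p under 0.05, and its sum gave -0.01 (SE 0.0237). The 9 regions of Cd36, the fatty acid uptake receptor, had log2 fold changes of -0.44 to 0.21, and its sum gave -0.09 (SE 0.0526).

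Of the 14 other lists, 12 held no call. Regions passed the test in 2 lists, 1 in cohesin and chromosome architecture (Smc3) and 1 in Toll-like receptor signalling (Cd180), both described above and known when those lists were chosen. The lists' medians were -0.02 to 0.03, and 4.29% to 11.3% of their regions had an unadjusted p under 0.05, against 7.29% of all. The highest share was in xenobiotic and bile acid metabolism, with 7 higher and 14 lower of 186 regions. Fatty acid oxidation had 9 higher and 2 lower of 179 regions, with a median of 0.02, and glucose metabolism 14 higher and 8 lower of 245. NRF2 targets had 4 higher and 10 lower of 166, lipid synthesis 13 higher and 8 lower of 276, and hepatocyte identity 8 higher and 14 lower of 326. In riboflavin and flavin metabolism 2 higher and 0 lower of 40 regions had an unadjusted p under 0.05, and mitochondrial flavoproteins had 3 higher and 4 lower of 116. The remaining lists were interferon and antiviral genes (2 higher and 3 lower of 101), p53 and DNA damage (4 and 2 of 140), inflammation and acute phase (7 and 6 of 196) and cell cycle (1 and 3 of 67).

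None of the following regions of lowest p in these lists passed the test. Metabolic genes among them were Bdh1, the ketone body dehydrogenase, with 21.9, 17.2 and 24.5 scaled tags in Ad_Cre and 11.7, 12.7 and 7.37 in Ad_Cont libraries (log2 fold change 0.99), and Pnpla3, a lipid droplet lipase (0.85, or 0.33 with summed peaks). Acadm, the medium-chain acyl-CoA dehydrogenase and a flavoprotein, had 30.3, 34.5 and 30.8 scaled tags in Ad_Cre and 42.1, 43.5 and 43.1 in Ad_Cont libraries (-0.43). All Acadm values in Ad_Cre cells were lower, though with stitched peaks Acadm gave 0.02. Slc52a3, a riboflavin transporter gene, had 19.8, 27.8 and 20.0 scaled tags in Ad_Cre and 10.8, 18.0 and 16.8 in Ad_Cont libraries (0.59, or 0.37 without Ad_Cont replicate 1). Near Nfkb1, an NF-kappaB subunit gene, there were 7.3, 9.58 and 9.07 scaled tags in Ad_Cre and 16.1, 17.0 and 13.7 in Ad_Cont libraries (-0.84), and the control diet gave -0.95. The other lists were led by Gclc, of glutathione synthesis (-0.79, or -0.12 with stitched peaks and -0.23 with an overlap of at least 100 bp), Slco1b2, a liver anion carrier (0.80), Fgb, fibrinogen beta (0.76, or 0.07 with stitched peaks), Myc (0.63), Btg2, a p53 target (-0.66, or 0.03 with stitched peaks), Pcx, pyruvate carboxylase (-0.63), and Irf1 (-0.54, or -0.15 with stitched peaks and -0.29 without Ad_Cre replicate 3).

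The hepatocyte label was checked with markers of liver cell types. All 8 hepatocyte markers had tested regions, whose tags summed to 2675 to 2713 in Ad_Cre and 2712 to 2754 in Ad_Cont libraries. Of the Kupffer cell and macrophage markers 5 of 10 had no tested region (Adgre1, Clec4f, Vsig4, Timd4 and Cd5l), and of the lymphocyte markers 4 of 10 had none, among them Cd8a, Ms4a1 and Cd79a. The Kupffer sums were 451.7 to 487.3 in Ad_Cre and 463.4 to 486.2 in Ad_Cont libraries, and the lymphocyte sums, which include Cd180, were 499.2 to 556 in Ad_Cre and 535.5 to 560.2 in Ad_Cont libraries. All 11 endothelial markers had regions, at 1582 to 1616 in Ad_Cre and 1562 to 1600 in Ad_Cont libraries, as did all 10 stellate markers, at 704.8 to 770.1 in Ad_Cre and 716.8 to 761.9 in Ad_Cont libraries. All 9 cholangiocyte markers had regions, and their sums did not overlap, at 2206 to 2227 in Ad_Cre and 2244 to 2284 in Ad_Cont libraries. Of their 70 regions, 0 were higher and 3 lower at an unadjusted p under 0.05 in edgeR (4.29%, against 7.29% of all regions). The sums of the 6 marker lists were set side by side without a test. The part of cell mixture in the results above was not tested.

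Sites that all 3 libraries of a group listed and no library of the other did were counted without a test. Of 389234 regions listed in any of the 6 libraries, 2802 (0.72%) had such a pattern, 1499 in Ad_Cre libraries only (0.385%) and 1303 in Ad_Cont libraries only (0.335%). Most were weak, with median tags of 8.0 in the Ad_Cre-only and 7.67 in the Ad_Cont-only regions. Means of 20 tags or more were reached by 73 Ad_Cre-only and 40 Ad_Cont-only regions, of which 72 and 39 had a peak within 500 bp in all 3 libraries of the group that did not list them. The tallest Ad_Cre-only region, 21745 bp from Lrrc74a, had 66, 63 and 76 tags in Ad_Cre and no listed peak in Ad_Cont libraries. The nearest peaks beside it had 101, 109 and 103 tags in Ad_Cre and 104, 107 and 97 in Ad_Cont libraries, so the neighbourhood was open in both. The tallest Ad_Cont-only region, at an end of Ric8b, a chaperone of G proteins, was listed in no Ad_Cre library and had 72, 61 and 62 tags in Ad_Cont libraries, beside peaks of 90, 113 and 105 tags in Ad_Cre and 100, 97 and 93 in Ad_Cont libraries.

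The next Ad_Cre-only regions lay at Aff1, a transcription elongation factor gene (51, 48 and 55 tags), Cd47, the do-not-eat-me signal (54, 46 and 52), and Chsy3 (44, 48 and 53), and 23322 bp from Gpx5 (41, 42 and 50). The next Ad_Cont-only regions lay at Gjb2, the gap junction protein connexin 26 of hepatocytes (62, 49 and 54 tags), Sh3bp2 (59, 52 and 48), and Lrrc42 (59, 43 and 50), and 138159 bp from Trib2, the nearest gene (53, 50 and 43). Beside each of these regions, every library of the group that did not list it had a listed peak. The peaks beside the Cd47 region had 74, 84 and 86 tags in Ad_Cre and 82, 80 and 80 in Ad_Cont libraries. Those beside the Gjb2 region had 89, 89 and 114 tags in Ad_Cre and 99, 79 and 87 in Ad_Cont libraries. At Aff1 the Ad_Cont libraries had 54, 61 and 37 tags. In the control diet 35 of the 1499 Ad_Cre-only and 14 of the 1303 Ad_Cont-only regions had the same pattern. The share of all listed regions with that pattern in the control diet was not counted, so these counts have no background beside them. Of 920 listed regions at the AhR list genes 4 (0.435%) were Ad_Cont-only, against 0.335% of all listed regions, and 0 Ad_Cre-only, so the share was near that of all regions. The 4 were the weak site in Ahr, one inside Cyp1a1 with 9, 7 and 10 tags in Ad_Cont libraries, and a pair near Lrat, a retinoid esterification enzyme, with 6 to 12 tags.

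The share of regions with a low p was smallest at gene ends. There 5.75% of 21684 regions had an unadjusted p under 0.05, against 7.82% of 46757 inside genes, 7.43% of 23028 within 50 kb and 7.86% of 10106 farther away. Median levels differed as well, at 40.3 scaled tags at gene ends and 20.8, 22.2 and 20.2 at the other places in that order. The median SE of a region's log2 fold change was 0.201, and of a gene's sum 0.0809.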

How the data were processed

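ATAC-seq libraries of 12 mouse hepatocyte samples entered 1 fit, in 4 groups of 3; the 8 HepG2 libraries were not analysed here. The authors deposited a peak list per library, mostly of 200 bp peaks, in which each peak has a count of tags; these counts were taken as unscaled from their values, as the lists have no header. Bowtie2, HOMER and mm10 are named in the submitters' processing notes, without versions or roles. Duplicate handling, peak thresholds and sequencing depth are not given here. Differences at weak sites are limited by the lowest listed count.

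Peaks on chromosome Y or unplaced sequences (0.151%) were left out. Peaks overlapping by at least 1 bp over the 12 lists were merged, and the highest count of a library in a region was its value. Regions with a peak in all 12 libraries were tested with edgeR 4.0.16 (R 4.3.3; TMM scaling, quasi-likelihood test) with Benjamini-Hochberg adjustment over all regions, threshold 0.05. Replicates varied less than Poisson noise, so the edgeR form that lets the variance go below Poisson was used; it was chosen with earlier results known. Scaled tags are counts divided by the TMM-adjusted relative library size. Regions were assigned to the nearest protein-coding gene within 50 kb on RefSeq GRCm38.p6, and a gene end is within 1 kb of either end of the gene. Promoter sequences are RefSeq's. Totals were compared by exact permutation tests with SciPy 1.17.1. Steps were tested on simulated data.

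Members and lists were chosen with earlier results of these data known. Named items were every call, the regions of the AhR list, the 12 uncalled regions and 6 uncalled genes of lowest p in each direction (regions with groups that do not overlap and within 50 kb of a gene), the region of lowest p in each other list, and the 5 tallest regions listed by 1 group alone in each direction. Some named items are not reported here. Alternatives were edgeR bounded at Poisson, DESeq2 1.42.0, limma 3.58.1 on log2(scaled tags + 1), other scaling, filters, overlaps and distances, a replicate block and leaving out each library.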

Additional observations from a re-analysis of the deposited data

How the results depend on the processing

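The 2 regions called became 0 with edgeR bounded at Poisson (2485 at unadjusted p under 0.05), 0 with DESeq2 (594) and 0 with an overlap of at least 100 bp (6374). They became 1 with listed tags as library size, 6 with summed peaks, and 15 (7 higher, 8 lower) among the 252554 regions with a peak in at least 3 libraries. Limma called 2, and 3 were called with the 6 libraries alone, a mean count of at least 15 or peaks of at least 10 tags. Leaving out 1 library gave 0 to 5 calls, with 0 without Ad_Cont replicate 1 (6852 at unadjusted p under 0.05) or Ad_Cre replicate 1 (7086). Settings chosen after seeing the data gave 0 with peaks at 1 place (84838 regions, 6170 at unadjusted p under 0.05), 0 with stitched peaks (69890 regions, 5127) and 3 with the 6 libraries alone on the same regions. The Cd180 region passed in 9 of 17 and the Smc3 region in 8 of 18 alternatives. Without Ad_Cre replicate 3 the Cd180 log2 fold change was -1.76.

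The 4 genes called became 0 with bounded edgeR (378 at unadjusted p under 0.05), 0 with DESeq2 (85), 5 with limma, 3 with listed tags, 3 with regions within 10 kb, 0 with stitched peaks (1136) and 1 to 3 when a library was left out. The interaction gave 0 in every setting run (1427 at unadjusted p under 0.05 with bounded edgeR, 278 with DESeq2, 5137 with limma, 6003 with listed tags, 3639 with stitched peaks). Regions listed by 1 group alone numbered 932 in Ad_Cre and 490 in Ad_Cont when peaks needed 10 tags. With stitched peaks Slc39a9 (-0.26), Btbd7 (0.10), Abhd3 (0.0923), Lrp1 (0.0155), C330018D20Rik (0.21), Btg2 (0.0288) and Acadm (0.0201) reversed; the cause was not tested. The averaged contrast gave 97 regions, 0 with bounded edgeR (3986 at unadjusted p under 0.05), 0 with DESeq2 (1362), 65 with limma, 342 (32 higher, 310 lower) with listed tags, 104 with peaks at 1 place, 71 with stitched peaks and 29 to 99 when a library was left out, with 29 without Cont_Ad_Cre replicate 3.

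Replicate numbers gave no clear pairing of the samples. Deviations from group means correlated at 0.00131 to 0.00849 for the same number and -0.00812 to 0.00232 for different numbers. At a median of 23.3 scaled tags per region, correlations this small cannot show whether samples were paired. With a replicate block 3 regions and 4 genes were called, the third region being Habp4 (adjusted p = 0.0400).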

Other observations

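Averaging the Ad_Cre effect over both diets, an analysis added with earlier results known, called 97 regions in edgeR (0.0955%), 49 higher (0.0482%) and 48 lower (0.0473%) in Ad_Cre cells. Bounded edgeR and DESeq2 called 0, and listed tags as library size gave 32 higher and 310 lower. The averaged effect chose these regions, so their like sign in both diets is largely fixed by that choice. Of the 97, 90 had their highest peaks at 1 place. At gene ends lay 8.25% of them, against 21.3% of tested regions. None lay at AhR list genes, which held 281 of the 101575 tested regions, so a count of 0 says nothing of that list. The Habp4 region led the higher ones (averaged log2 fold change 0.69, SE 0.112, edgeR adjusted p = 0.000655). A region near Lect2, which encodes a hepatocyte-secreted chemotactic factor, had 16.7, 16.3 and 17.2 scaled tags in B2_minus_Ad_Cre and 8.96, 7.42 and 7.37 in B2_minus_Ad_Cont libraries (averaged 0.95, adjusted p = 0.00715). At an end of Il17ra, the interleukin 17 receptor, there were 71.0, 65.2 and 72.6 scaled tags in B2_minus_Ad_Cre and 52.0 to 53.7 in the 3 B2_minus_Ad_Cont libraries. The Cont libraries had 61.7, 68.6 and 57.9 with Ad_Cre and 46.4, 48.8 and 49.8 with Ad_Cont (averaged 0.38, adjusted p = 0.011). All Ad_Cre values at Il17ra were above all Ad_Cont values of the same diet.

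Lower regions were led by the one between Ankrd17 and Alb (averaged -0.57, adjusted p = 0.0062). One 13662 bp from Slc19a2, a thiamine transporter gene, had 20.9, 23.0 and 28.1 scaled tags in B2_minus_Ad_Cre and 34.1, 33.9 and 33.7 in B2_minus_Ad_Cont libraries (averaged -0.69, adjusted p = 0.00905). The region near Nfkb1 gave an averaged -0.89 (adjusted p = 0.011). Inside Mup20, a major urinary protein gene made in the liver, there were 16.7, 17.2 and 17.2 scaled tags in B2_minus_Ad_Cre and 24.2, 27.6 and 29.5 in B2_minus_Ad_Cont libraries (averaged -0.66, adjusted p = 0.0222), and since these genes form a family of near-identical copies the value is uncertain. Others named by lowest p were Ttk, Megf11, Tnr, Lyst, Gabbr2, Gsx2 and Gm14037 with higher values, and Dlc1, Cd180, Pml, Sptbn1, Raph1 and Rybp with lower values.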
